A study of Homo sapiens with 4 samples.

Results

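The 64 genes described here encode the proteins that bring the ribosome to an mRNA, move it along the coding sequence and release the finished chain. They were all the symbols among the 19972 in the deposited tables that start with EIF1 to EIF6 (the EIF2AK kinases and EIF2C genes left out) or with EEF1 or EEF2, together with PABPC1, PABPC4, ETF1 and GSPT1. HCT116, a human colorectal carcinoma cell line, received either a non-targeting siRNA as control (si-NC) or an siRNA against the long noncoding RNA LINC00152 (si-152). Both siRNAs were used at 100 nM for 36 h, and total RNA was sequenced from 2 biological replicates of each group. Replicates were plated independently, so replicate libraries differ as cultures do, 2 a group. The p-values rest on that spread only in part, since the test used, limma, draws each gene's spread toward that of genes of similar level. Every library came from the same parental line after transient transfection. LINC00152 was not analysed here, so the knockdown was not checked in these libraries.

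In a eukaryotic cell the small ribosomal subunit binds eIF1, eIF1A, eIF3, eIF5 and the eIF2 complex that carries the initiator tRNA, and eIF4F brings it to the capped end of the mRNA. eIF5B then joins the large subunit, eEF1A delivers each aminoacyl-tRNA, eEF2 moves the ribosome by a codon, and eRF1 with eRF3 ends the chain at a stop codon. Tumor cells often make more of these factors, and mTOR controls many of them, either through phosphorylation or through a pyrimidine tract at the capped end of their mRNAs.

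The values were taken to be FPKM, which divide the fragments of a gene by its length and by the size of the library. Levels of different genes can be set side by side only as far as each gene was fully counted. The tRNA synthetase gene VARS (0 to 0.0536 FPKM) and ABCF1 (0.0138 to 0.0442 FPKM) were near 0 in every library. Whether such values, or low ones within a complex such as that of EIF3K, reflect the mRNA or the counting was not tested. The values of a library summed to between 424742 and 534297, and between 14588 and 14685 symbols were above 0. The number of reads is unknown, and no counting error could be given. Epithelial markers were present in every library, with KRT8 at 718 FPKM or more and EPCAM at 191 FPKM or more, and CDX2, a marker of intestinal cells, lay between 8.29 and 10.4 FPKM. The leukocyte marker PTPRC and the fibroblast marker COL1A2 were listed at 0, PECAM1 did not exceed 0.0135 FPKM, and COL1A1 lay between 7.02 and 7.98 FPKM. Replicate 1 stood apart from replicate 2 in both groups along the first principal component (54.4% of the variance), and si-152 from si-NC along the second (28.9%). The first also differed by siRNA: si-152 lay at -22.8 against -8.0 for si-NC in replicate 1, and at 8.2 against 22.6 in replicate 2.

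Many translation factor mRNAs start with a C followed by a run of pyrimidines, the 5′ terminal oligopyrimidine tract through which mTOR and LARP1 control their translation. The start sites of RefSeq on GRCh38.p14 were searched for a C at the annotated start with at least 4 further bases that were each C or T, on the strand of the gene. Of the 64 symbols, 51 had a start in that table, and 12 of them (23.5%) carried the run at one of their starts, against 7.60% of the 8656 tested genes with a start and 4.07% of all 35116 starts. EIF2S2, EIF3A, EIF3CL, EIF3E, EIF3G, EIF3H, EIF3L, EIF4EBP1, EEF1A2, EEF1D, EEF2KMT, PABPC1 and PABPC4 had none there. The 10 bases before the start and the first 15 bases of the transcript are shown for members of the elongation factors, eIF3, eIF4F and eIF2, with the run in capitals, because these are the tracts by which the members were divided below. EIF1 and EIF4E, whose annotated start is a G, follow for contrast and have no capitals.
EEF1A1 (chr6:73521018-73521042, minus strand): cgtgaacgttCTTTTTCgcaacggg
EEF1B2 (chr2:206159885-206159909, plus strand): ctcttcgggtCCTTTTTCCTCTCTT
EEF2 (chr19:3985449-3985473, minus strand): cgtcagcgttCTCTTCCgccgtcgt
EIF3F (chr11:7987327-7987351, plus strand): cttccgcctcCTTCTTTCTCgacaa
EIF3K (chr19:38619178-38619202, plus strand): tttccaccacCTCTTCCTgttcccg
EIF4B (chr12:53006446-53006470, plus strand): tcatccgggtCTTTTgcgttctctt
EIF2S3 (chrX:24054946-24054970, plus strand): gatttccttcCTCTTTTggcaacat
EIF1 (chr17:41688875-41688899, plus strand): ccgcccctctgccccagtcactgag
EIF4E (chr4:98929119-98929143, minus strand): tggagcggttgtgcgatcagatcga

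In the fit of the siRNA groups alone, no translation factor passed the test between si-152 and si-NC. With the replicate number as a block, 5 had an unadjusted p under 0.05 by limma, against 16.9% of all tested genes, as given further below. Unless another fit is named, the tests, standard errors and intervals that follow are from the fit without the block. Of the 64 genes, 62 had at least 1 FPKM in at least 2 libraries and were tested with limma on log2(FPKM + 1), while EIF1AY and EIF4E1B did not pass this filter. By limma, 0 of the 62 had an unadjusted p under 0.05, against 4.38% of the 11221 genes tested. A fold of 1.5 as well was passed by 0 of the 62, against 1.66% of all tested genes (0.597% higher and 1.06% lower). After adjustment 0 passed, against 0.0178% of all tested genes, and the smallest adjusted p was 1.00 after rounding. The median log2 difference of the 62 genes was -0.01, with 29 higher and 33 lower, beside 0.02 for all tested genes. Failing the test does not show that a gene stayed level, so the width of the intervals matters: the 95% interval of the difference lay within a 2-fold change in either direction for 57 of the 62 genes (96.1% of all tested genes) and within a 1.5-fold change for 39 (48.5%). The 5 genes with wider intervals were EEF1D, EEF1B2, EEF1A1, EIF3K and EIF4EBP3.

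Same-numbered libraries were also compared pair by pair. In both pairs 15 factor genes were lower in si-152 (27.3% of all tested genes) and 20 were higher (35.6%). Another 27 of the 62 went in opposite directions, beside 4153 of the 11221 tested genes. Both si-152 libraries lay above both si-NC libraries for 7 of the 62 (16.5% of all tested genes) and below them for 5 (13.9%). Only the share with opposite directions exceeded that of all tested genes. The 7 were EIF2B2, EIF3B, EIF3CL, EIF4E, EIF4ENIF1, EEF2 and EIF1AD, and the 5 were EIF2S3, EIF2B3, EIF3E, EIF3C and EIF5A2. Of all FPKM in a library, the factors accounted for 2.84% and 2.84% in si-NC and for 3.11% and 2.77% in si-152, so that the si-152 libraries lay on either side of the controls.

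**Figure D1:**
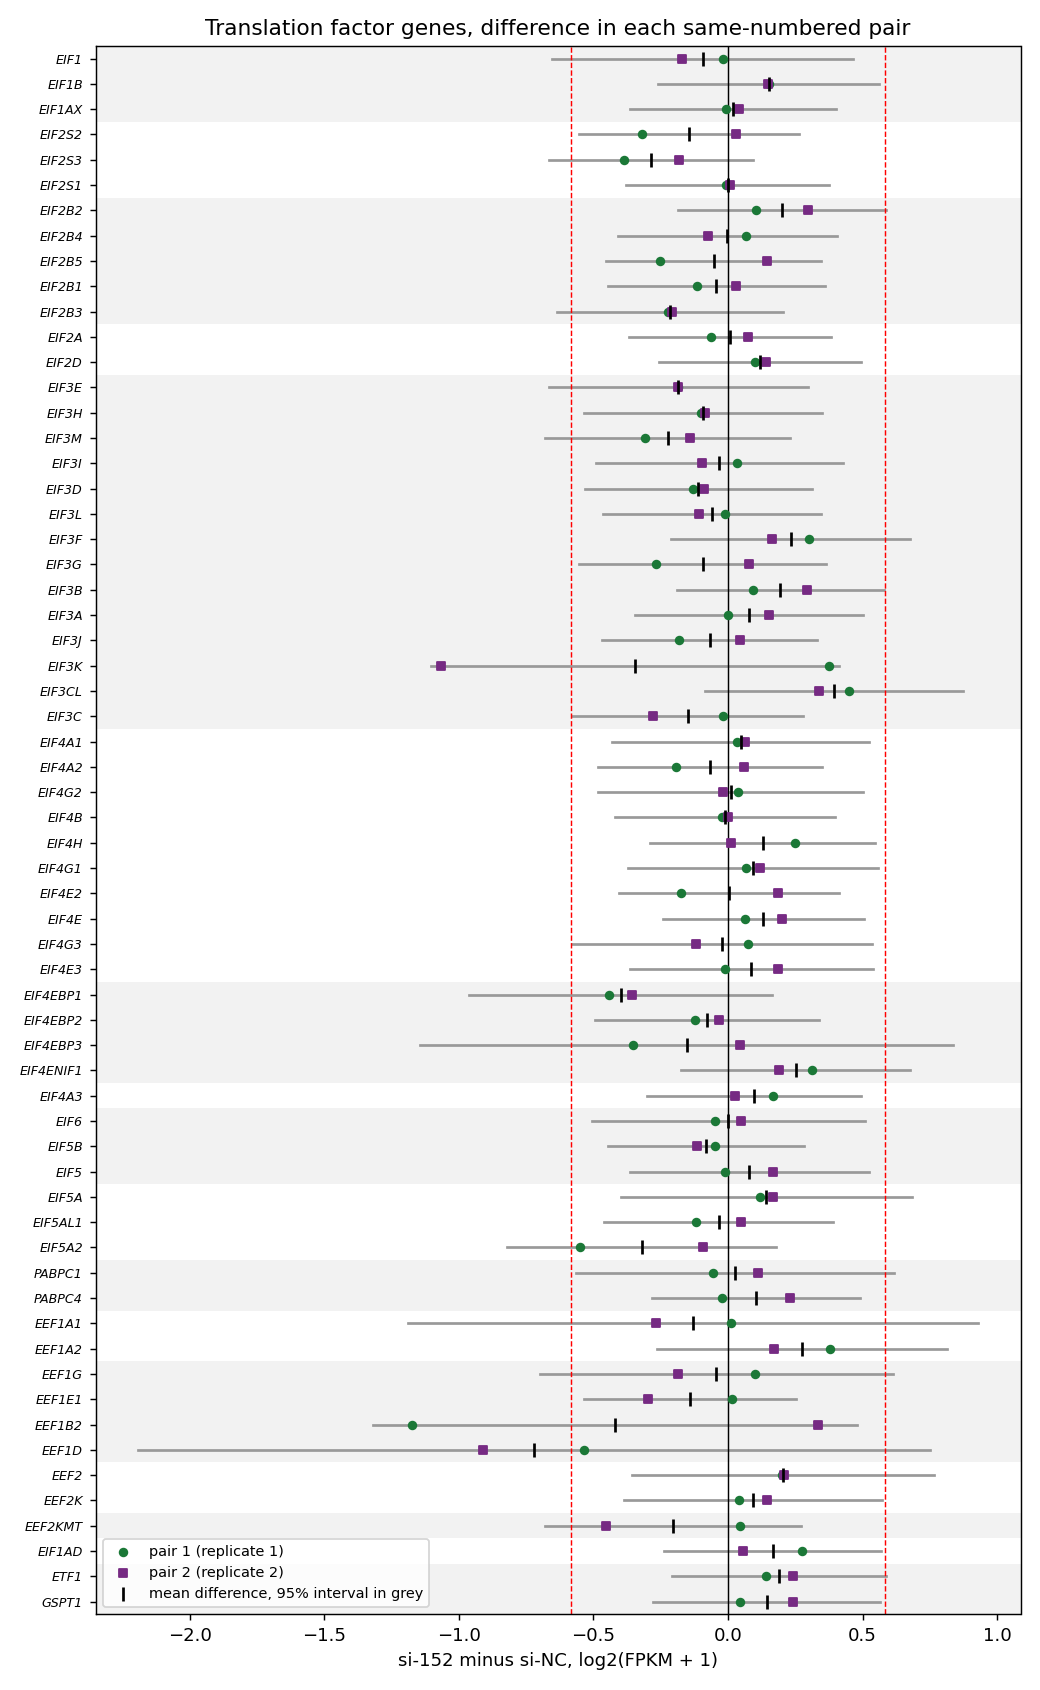
Difference between si-152 and si-NC on the log2(FPKM + 1) scale for the 62 tested translation factor genes, grouped by complex in shaded bands and ordered by level within each. Green circles are pair 1, purple squares pair 2, black bars the mean difference with its 95% interval in grey, and red dashes a 1.5-fold change; every interval crosses 0, and EEF1D, EEF1B2, EIF3K and EIF4EBP3 show the widest gaps or intervals together with EEF1A1.

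eIF1 and eIF1A hold the small subunit open while it scans for the start codon. EIF1 was at 672 and 759 FPKM (si-NC) against 664 and 674 FPKM (si-152), and the groups overlapped. Its log2 difference was -0.09 (standard error 0.25, 95% interval -0.65 to 0.47). EIF1B, a close relative of EIF1, was at 50.7 and 61.3 FPKM (si-NC) against 56.5 and 68.2 FPKM (si-152). EIF1 therefore supplied 90.8% to 93.0% of the summed FPKM of both genes in every library. EIF1AX, the X-linked gene of eIF1A, lay between 24.9 and 28.8 FPKM in the 4 libraries, with a difference of 0.02.

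eIF2 is the GTPase that carries the initiator tRNA, and its 3 subunits were 0 higher and 3 lower, with a median log2 difference of -0.15. The pair medians were -0.32 and 0.01, since only EIF2S3 was lower in both pairs and the other 2 went in opposite directions. EIF2S3, the gamma subunit that binds GTP and the tRNA, was at 90.0 and 80.3 FPKM (si-NC) against 68.5 and 70.6 FPKM (si-152). Both si-152 libraries were below both controls, by -0.39 in pair 1 and -0.18 in pair 2. The mean log2 difference was -0.29 (standard error 0.17, 95% interval -0.66 to 0.09), which did not pass the test. EIF2S1, the alpha subunit whose phosphorylation slows initiation under stress, was at 32.2 and 28.4 FPKM (si-NC) against 32.0 and 28.5 FPKM (si-152), nearly the same values by replicate number. EIF2S2, the beta subunit, lay between 93.9 and 118 FPKM, with si-152 replicate 1 the lowest. Of the subunits, EIF2S2 was thus the most abundant per length and EIF2S1 the least.

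eIF2B recharges eIF2 with GTP. Of its 5 genes 1 was higher and 4 were lower, with a median of -0.04. EIF2B2 was at 23.5 and 24.9 FPKM (si-NC) against 25.3 and 30.8 FPKM (si-152), a log2 difference of 0.20 (standard error 0.17). EIF2B3 was at 5.26 and 5.26 FPKM (si-NC) against 4.36 and 4.42 FPKM (si-152), an opposite difference of -0.22 (standard error 0.19). Its replicates were nearly equal, and yet it did not pass, since limma moves a spread this small toward that of genes of similar level. EIF2B3 had the lowest level of the complex, with a mean of 4.82 FPKM against 16.1 to 26.1 FPKM for the other subunits. EIF2A and EIF2D, which can bring an initiator tRNA to the ribosome without eIF2, had differences of 0.01 and 0.12.

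eIF3 is the large scaffold that keeps the subunits apart and binds the other initiation factors. Of its 14 genes 4 were higher and 10 lower, with a median log2 difference of -0.08 and pair medians of -0.02 and -0.09. EIF3E was the most abundant, at 378 and 409 FPKM (si-NC) against 333 and 360 FPKM (si-152). Its groups did not overlap, and its difference of -0.19 was nearly the same in both pairs (standard error 0.21). EIF3M, at 200 and 222 FPKM (si-NC) against 161 and 201 FPKM (si-152), had a difference of -0.22 and overlapped. EIF3B and EIF3F pointed upward, with log2 differences of 0.19 and 0.23. EIF3B lay at 93.2 and 88.1 FPKM (si-NC) against 99.6 and 108 FPKM (si-152). EIF3A, the largest subunit, lay between 65.5 and 84.1 FPKM and was lower in replicate 2 of both groups.

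The levels of the eIF3 genes fell into separate ranges although the subunits act as one complex. EIF3E, EIF3H, EIF3M, EIF3I, EIF3D, EIF3L, EIF3F, EIF3G, EIF3B, EIF3A and EIF3J had means from 370 down to 51.5 FPKM, whereas EIF3K, EIF3CL and EIF3C had means of 8.06, 5.61 and 5.32 FPKM. EIF3C and EIF3CL are near-identical copies on chromosome 16 (GRCh38 28688558 to 28735730 on the plus strand and 28379579 to 28403879 on the minus strand). Of the 50-base words in GENCODE v29 transcripts of EIF3CL, 97.2% also occur in those of EIF3C, so reads of the copies can be split between them by the counting and their separate values are uncertain. EIF3C went from 5.22 and 6.08 FPKM to 5.13 and 4.84 FPKM, and EIF3CL from 3.97 and 5.48 FPKM to 5.79 and 7.20 FPKM. Added together they were at 9.19 and 11.6 FPKM (si-NC) against 10.9 and 12.0 FPKM (si-152), which overlapped, while the share of EIF3C was 56.8% and 52.6% in si-NC and 47.0% and 40.2% in si-152. EIF3K was at 5.28 and 13.8 FPKM (si-NC) against 7.14 and 6.04 FPKM (si-152). It was higher in pair 1 (0.37) and lower in pair 2 (-1.07), and si-NC replicate 2 alone stood apart. Its mean difference of -0.35 (standard error 0.34) turned to 0.27 without that library.

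**Figure D2:**
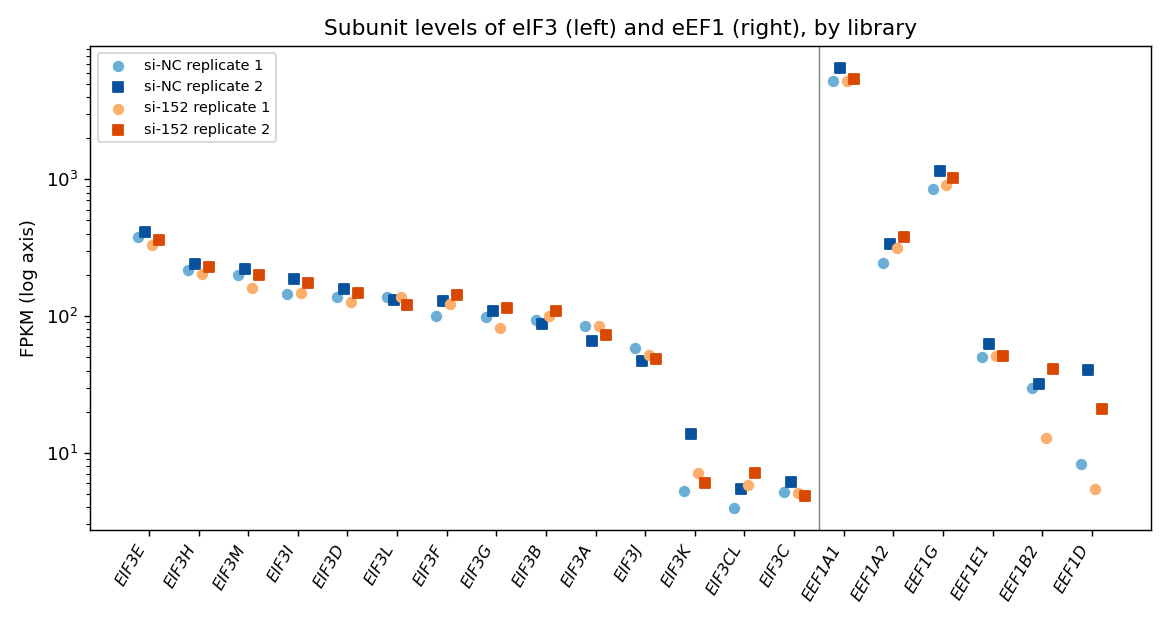
FPKM (log axis) of the 14 eIF3 genes at left and the 6 eEF1 genes at right in each of the 4 libraries (blue si-NC, orange si-152, circles replicate 1, squares replicate 2). EIF3K, EIF3CL and EIF3C lie at or below 13.8 FPKM in every library while the other eIF3 genes lie at or above 46.9 FPKM, and EEF1D is higher in replicate 2 of both groups.

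eIF4F binds the cap and unwinds the leader of the mRNA. Grouped with it were 11 genes, which include the helpers EIF4B and EIF4H and relatives such as EIF4E2 and EIF4G2, and 10 were tested. Of these 7 were higher and 3 lower, the median difference was 0.03, and the 95% interval of all 10 lay within a 1.5-fold change. EIF4E, the cap-binding subunit, was at 23.9 and 21.0 FPKM (si-NC) against 24.9 and 24.3 FPKM (si-152), a log2 difference of 0.13 (standard error 0.17, 95% interval -0.24 to 0.50). EIF4E2, a cap-binding homologue linked to repression, was the more abundant at 35.7 to 46.9 FPKM, and EIF4E supplied 32.8% to 39.6% of the sum of EIF4E, EIF4E2 and EIF4E3. EIF4A1, the helicase, was at 353 and 370 FPKM (si-NC) against 361 and 386 FPKM (si-152), and its paralogue EIF4A2 at 181 and 165 FPKM and at 158 and 171 FPKM. EIF4A1 made up 66.1% and 69.2% of their sum in si-NC and 69.5% and 69.3% in si-152.

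The eIF4G genes differed more between replicate numbers than between groups. EIF4G1 was at 87.9 and 65.9 FPKM (si-NC) against 92.1 and 71.7 FPKM (si-152). EIF4G2, which lacks the eIF4E-binding part and serves cap-independent initiation, was at 163 and 125 FPKM and at 167 and 124 FPKM. EIF4G3 was at 11.2 and 8.02 FPKM and at 11.9 and 7.31 FPKM. All 3 were lower in replicate 2 of both groups, with mean log2 differences between replicate 2 and replicate 1 of -0.38, -0.40 and -0.53, against differences between si-152 and si-NC of 0.09, 0.01 and -0.02.

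The eIF4E-binding proteins compete with eIF4G for eIF4E when mTOR is inactive. EIF4EBP1 was far the most abundant, at 91.4% to 94.1% of the sum of the 3 genes in every library. It was at 247 and 337 FPKM (si-NC) against 182 and 263 FPKM (si-152). In each pair the si-152 library was lower, by -0.44 and -0.36, but si-152 replicate 2 stayed above si-NC replicate 1 and the groups overlapped. The log2 difference was -0.40 (standard error 0.25, 95% interval -0.96 to 0.17), which did not pass the test. EIF4EBP2 had a difference of -0.08 and lay between 12.6 and 15.9 FPKM. EIF4EBP3 was at 3.53 and 8.20 FPKM (si-NC) against 2.55 and 8.49 FPKM (si-152), set apart by replicate number. EIF4ENIF1, which carries eIF4E into the nucleus and to P-bodies, was at 4.52 and 4.41 FPKM (si-NC) against 5.86 and 5.17 FPKM (si-152), with no overlap and a log2 difference of 0.25 (standard error 0.19).

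The factors of the later steps of initiation, with EIF4A3, EIF1AD and the poly(A)-binding proteins, had log2 differences smaller than their standard errors. EIF5, which triggers GTP hydrolysis on eIF2, had a log2 difference of 0.08 and EIF5B one of -0.08. EIF6, which keeps free large subunits from joining, was at 175 and 223 FPKM (si-NC) against 170 and 231 FPKM (si-152), a difference of 0.0016 (95% interval -0.51 to 0.51). EIF4A3, a helicase homologue that sits in the exon junction complex, had a difference of 0.10. EIF1AD, a nuclear protein that carries an eIF1A-like domain and was matched by its symbol, had one of 0.17. PABPC1, the main cytoplasmic poly(A)-binding protein, was at 861 and 848 FPKM (si-NC) against 828 and 916 FPKM (si-152) (difference 0.03), and PABPC4 at 82.9 and 71.4 FPKM and at 81.7 and 83.8 FPKM (difference 0.10). PABPC1 made up 91.0% to 92.2% of both in every library.

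EEF1A1 was the most abundant member, at 5189 and 6512 FPKM (si-NC) against 5226 and 5403 FPKM (si-152). Its log2 difference was -0.13 (standard error 0.47, 95% interval -1.19 to 0.93), and si-NC replicate 2 was the only library apart from the others. The limma p of EEF1A1 was 0.790 with the mean-variance trend and 0.516 without it, so part of that width comes from genes of similar level. EEF1A2, the isoform of muscle and neurons that is also found in tumor cells, was at 243 and 338 FPKM (si-NC) against 316 and 381 FPKM (si-152). It was higher in both pairs, by 0.38 and 0.17, with a mean of 0.27 (standard error 0.24) and overlapping groups. The share of EEF1A2 in the summed FPKM of both genes was 4.47% and 4.94% in si-NC and 5.70% and 6.59% in si-152, without overlap. With quantile normalization, or with all libraries scaled to the same sum, the difference of EEF1A2 was 0.39 and 0.37 and passed an unadjusted p of 0.05 by limma, with adjusted p-values of 0.783 and 0.999. It was 0.04 without si-NC replicate 1 and 0.14 without si-152 replicate 2, against 0.51 without si-NC replicate 2 and 0.41 without si-152 replicate 1. None of the 50-base words of EEF1A2 transcripts occur in those of EEF1A1 (0 of 5071), so exact reads of that length tell the isoforms apart.

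eEF1B recharges eEF1A with GTP. The 4 genes grouped here, of which EEF1E1 was placed by its symbol alone, were 0 higher and 4 lower, with a median log2 difference of -0.28. Only EEF1D was lower in both pairs, and the other 3 went in opposite directions. EEF1G, the gamma subunit, was at 845 and 1158 FPKM (si-NC) against 907 and 1017 FPKM (si-152), with a difference of -0.04. EEF1B2 and EEF1D, the exchange subunits beta and delta, were far below it and the most uneven between replicates. EEF1B2 was at 30.1 and 32.2 FPKM (si-NC) against 12.8 and 40.8 FPKM (si-152), so that its difference was -1.17 in pair 1 and 0.33 in pair 2. EEF1D was at 8.33 and 40.1 FPKM (si-NC) against 5.44 and 20.8 FPKM (si-152). Its log2 difference of -0.72 was the largest of all the factors (standard error 0.66, 95% interval -2.19 to 0.75), while replicate 2 exceeded replicate 1 by 1.95. Without si-NC replicate 1 the difference of EEF1D was -1.79, and without si-152 replicate 2 it was -1.60, both then past an unadjusted p of 0.05 in fits that leave a single degree of freedom among the libraries. By pair the differences of EEF1D were -0.53 and -0.91, so it was lower in both. Its sign turned without si-NC replicate 2 (0.35) and without si-152 replicate 1 (0.16). Each of these fits sets a lone library of 1 replicate number against libraries of both numbers, so its sign depends on the library left out. The ratio of EEF1D to EEF1G was 0.0099 and 0.035 in si-NC and 0.0060 and 0.021 in si-152. EEF1E1, a scaffold of the tRNA synthetase complex, was at 50.5 and 63.1 FPKM (si-NC) against 51.0 and 51.1 FPKM (si-152).

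EEF2 was at 690 and 654 FPKM (si-NC) against 792 and 755 FPKM (si-152). Both si-152 libraries were above both controls, by 0.20 and 0.21 in the pairs, and the log2 difference of 0.20 (standard error 0.25, 95% interval -0.36 to 0.77) did not pass the test. Its inhibitory kinase EEF2K was at 4.41 and 3.25 FPKM and at 4.56 and 3.69 FPKM (difference 0.09), and the methyltransferase EEF2KMT had a difference of -0.21. EIF5A, which frees ribosomes that stall on proline runs and is the only known protein with the amino acid hypusine besides its paralogue, was at 515 and 570 FPKM (si-NC) against 559 and 640 FPKM (si-152), a difference of 0.14 (standard error 0.24). EIF5A2 was at 2.41 and 1.46 FPKM (si-NC) against 1.33 and 1.31 FPKM (si-152), without overlap, with a difference of -0.32 (standard error 0.22). The retrocopy EIF5AL1 shares 11.6% of its 50-base words with EIF5A and had a difference of -0.03. EIF5A supplied 98.6% to 99.0% of the sum of the 3 genes. The release factors ETF1 (eRF1) and GSPT1 (eRF3a) were both higher in each pair, with log2 differences of 0.19 and 0.14 and standard errors of 0.18 and 0.19.

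For most of the factors, libraries of different replicate number lay further apart than libraries of different siRNA. In 46 of 62 genes the mean difference between replicate 2 and replicate 1 was larger in size than that between si-152 and si-NC, as it was in 63.1% of all tested genes. This difference followed transcript length. Across the 62 genes, the Spearman correlation of the length of the longest coding transcript in GENCODE v29 with the log2 difference between replicate 2 and replicate 1 was -0.66, and across the 10776 tested genes with a length it was -0.67. These are correlations across genes within the same 4 libraries, and genes are not independent replicates. Among the long transcripts EIF4G3, EIF5, EEF2K and EIF3A were lower in replicate 2, by -0.53, -0.35, -0.30 and -0.28, although EIF3F and EIF5B were higher. Short ones such as EIF4EBP3, EEF1B2, EIF3K and EIF4EBP1 were higher, by 1.22, 0.85, 0.51 and 0.49. The difference between si-152 and si-NC went the other way with length, at a Spearman correlation of 0.31 across the factors and 0.28 across all genes. The part of length in the differences between si-152 and si-NC was not tested.

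**Figure D3:**
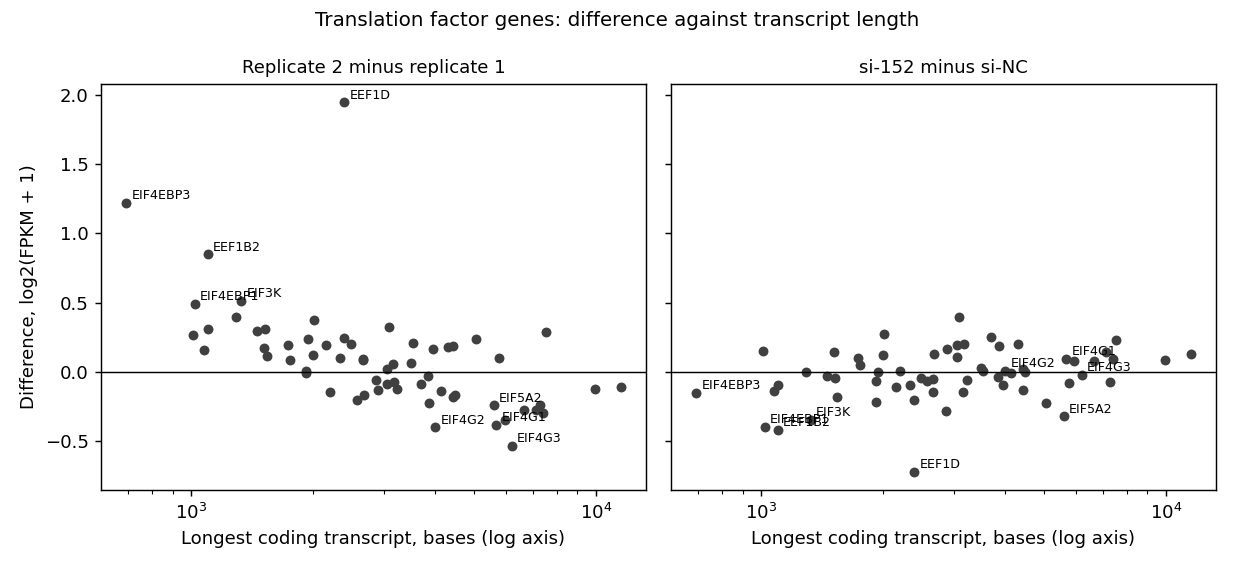
Log2 differences of the 62 tested translation factor genes against the length of the longest coding transcript (log axis, bases), between replicate numbers at left and between siRNAs at right. At left most short transcripts lie above 0 and most long ones below it (Spearman -0.66), and at right the points scatter more closely around 0 (Spearman 0.31).

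The 12 genes with the pyrimidine run at the start were 4 higher and 8 lower in si-152, with a median log2 difference of -0.09, against a median of 0.0044 for the 37 tested factors whose listed starts lack it. All 658 tested genes with such a start had a median of -0.02. By pair, the medians of the 12 genes were -0.04 and 0.03. Of them, EEF2 and EIF2S3 were the only genes whose groups did not overlap, in opposite directions. EIF4B, with the shortest run shown above, was at 149 and 134 FPKM (si-NC) against 147 and 134 FPKM (si-152), and EIF3D, EIF4A2, EIF2A and EIF2D differed by -0.11, -0.07, 0.01 and 0.12. A run of these letters describes the annotated start and says nothing of the translation of the mRNA, which was not measured.

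Regulators of initiation and elongation were taken as a separate list, which holds kinases and modifying enzymes together with inhibitors, mTOR complex and pathway members, LARP1 and the transcription factor ATF4. Of its 23 genes, all tested, 3 had an unadjusted p under 0.05, of which 1 was higher (1.89% of all tested genes) and 2 were lower (2.5%), and 0 passed adjustment over all genes. DOHH, the hydroxylase that completes hypusine on eIF5A, was at 25.7 and 24.0 FPKM (si-NC) against 10.1 and 16.1 FPKM (si-152). Both si-152 libraries were below both controls, with a log2 difference of -0.91 (standard error 0.22, limma adjusted p = 0.595). DHPS, which carries out the step before it, was at 29.3 and 29.9 FPKM (si-NC) against 24.2 and 29.8 FPKM (si-152). DOHH lies on chromosome 19 of GRCh38 from 3490822 to 3500940.

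MKNK2, a kinase that phosphorylates eIF4E, was at 91.4 and 104 FPKM (si-NC) against 139 and 157 FPKM (si-152), a log2 difference of 0.59 (standard error 0.18, limma adjusted p = 0.843). By pair the differences were 0.60 and 0.58. MKNK1, the other eIF4E kinase, had a difference of 0.11. PDCD4, which binds eIF4A and blocks its helicase, was at 27.3 and 23.3 FPKM (si-NC) against 17.8 and 18.9 FPKM (si-152), a log2 difference of -0.44 (standard error 0.17, limma adjusted p = 1.00 after rounding). MKNK2 lost its unadjusted call when si-NC replicate 1 was left out (0.50), and PDCD4 lost its call when si-NC replicate 1 (-0.33) or either si-152 library (-0.40 and -0.48) was left out and when libraries were scaled to the same sum (-0.35). DOHH kept an unadjusted p under 0.05 in each of these fits. Among the other regulators, MTOR had a difference of 0.25, PPP1R15A, which helps to remove the phosphate from eIF2, one of 0.07, and the eIF2 kinases EIF2AK3 and EIF2AK4 differences of -0.36 and 0.07.

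**Figure D4:**
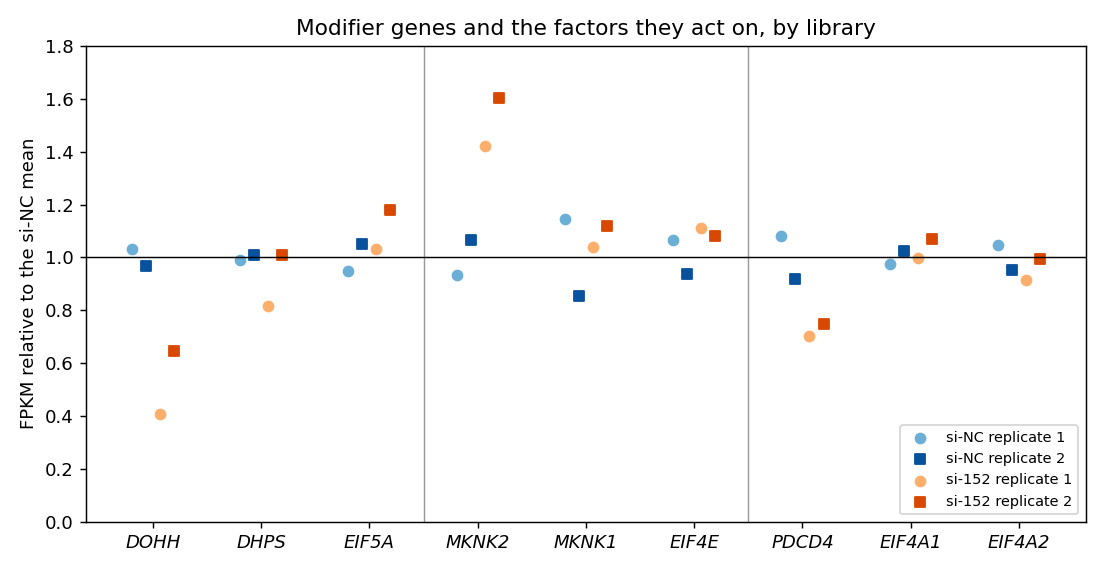
FPKM relative to the mean of the si-NC libraries (linear axis) for 3 groups of a modifier and the factor it acts on, in each of the 4 libraries (blue si-NC, orange si-152, circles replicate 1, squares replicate 2). DOHH and PDCD4 lie below both controls and MKNK2 above them in both si-152 libraries, while DHPS, MKNK1, EIF5A, EIF4A1 and EIF4A2 overlap and EIF4E is slightly above both controls.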

How the data were processed

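Each library has its own table, in which the authors deposited a value for each gene symbol. The values were taken as FPKM, since they have decimals and their totals vary, and the unit is not named with them. The submitters' processing notes name Trimmomatic, TopHat, HISAT2, HTSeq, DESeq and GRCh38, with no role or version, and which of them made the deposited FPKM values is not given in the sources used here. Of 19974 symbols, 28 read as dates, and 2 repeats were dropped. The authors tested genes with DESeq, which needs read counts. FPKM was not scaled further. A pseudocount of 1 was added. Genes that reached 1 FPKM in 2 or more libraries entered limma 3.58.1 (R 4.3.3, mean-variance trend, two-sided, Benjamini-Hochberg over 11221 genes). Depth per library is unknown. Differences understate the change of low genes. In data simulated on these 11221 genes with 200 changed by 1.2 (log2), 197 were recovered at the thresholds and 100 others called. The simulated data held no difference between replicate numbers, and the change was larger than that of any factor. The recovery therefore does not tell how well changes of the size seen among the factors would be found.

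The members, their complexes and the other gene lists were chosen with earlier results of these data known. Named were, per complex, the members with the largest increase, the largest decrease and the highest level, a set of paralogue pairs, members or listed genes with an unadjusted p under 0.05 and 6 regulators. Other members were added as values. Lengths and 50-base words came from GENCODE v29, starts from RefSeq GRCh38.p14 (51 of 64 symbols matched). Python 3.11.15, numpy 2.4.6 and pandas 2.3.3 were used. Alternatives covered the pseudocount, filter, scaling, trend, replicate block and single libraries.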

Additional observations from a re-analysis of the deposited data

How the results depend on the processing

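For the translation factors, the count past both thresholds stayed at 0 under the other pseudocount, filters and scalings and without the trend. With the replicate number as a block, 1 gene (EEF1D) was past them, beside 209 of all 11221 tested genes. An unadjusted p under 0.05 was reached by 5 (EEF1A2, EEF1D, EIF2S3, EIF3CL and EIF4EBP1), against 16.9% of all tested genes. In that fit the limma adjusted p of EEF1D was 0.0482. The labels give the replicate numbers and do not say what same-numbered libraries share. Their deviations correlated at 0.52 across genes. Quantile normalization and scaling of all libraries to the same sum each gave 1 gene at that p (EEF1A2). The share of all tested genes at that p was not taken in these fits. Scaling to the same sum moved the median of all genes to 0.11 and that of the factors to 0.091. It left 8 factors lower in both pairs in place of 15 (16.5% of all tested genes), and 46 of 62 higher (70.1%). After median-of-ratios size factors the split was 24 higher and 38 lower (50.4% of all tested genes higher). After quantile normalization it was 37 higher and 25 lower (52.6% higher), so the direction of the list's small median depends on the scaling. With 1 library left out, the factors past both thresholds numbered 0 to 4, those at the unadjusted p 0 to 4, and all genes past both thresholds 242 to 546 (186 with all libraries). The factor median then lay between -0.01 and 0.02. Which factors were called in such fits changed with the library left out. These fits assume that a lone library varies as the other group does. Over the fits with 1 library left out, the difference ranged from -1.79 to 0.35 for EEF1D, -0.96 to 0.27 for EIF3K, -0.67 to -0.13 for EIF4EBP1, 0.20 to 0.59 for EIF3CL and 0.04 to 0.51 for EEF1A2. Each of these fits sets 1 replicate number in a group against both in the other. By pair, EEF1D, EIF4EBP1, EIF3CL and EEF1A2 kept their direction, and EIF3K did not. The cause of the gaps between replicate numbers was not tested. Without read numbers, a level of a few FPKM has no counting error.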

Other observations

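Other parts of the translation machinery were read in the same way. Of 22 accessory factors for initiation, recycling and termination, 21 had a row and 19 were tested. Of these 12 were higher and 7 lower, and the median log2 difference was 0.04. By limma 0 had an unadjusted p under 0.05, against 4.38% of all tested genes. ABCF3, a relative of the ribosome recycling factor ABCE1, came nearest, at 17.2 and 19.0 FPKM (si-NC) against 13.1 and 15.2 FPKM (si-152) (difference -0.34, standard error 0.17). ABCE1 itself lay between 39.1 and 54.2 FPKM. GSPT2, the second eRF3 gene, was listed at 0 in every library. ABCF3 and ABCE1 fall outside the naming rule and were picked with their values known.

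The cytosolic tRNA synthetases charge the tRNAs that eEF1A delivers. With the complex proteins AIMP1 and AIMP2, 21 of 22 were tested, 9 were higher and 12 lower, with a median of -0.08. RARS, the arginine enzyme, was at 46.5 and 43.7 FPKM (si-NC) against 34.5 and 34.7 FPKM (si-152) (log2 difference -0.37, standard error 0.16, limma adjusted p = 1.00 after rounding). It no longer passed the unadjusted threshold without the trend, when libraries were scaled to the same sum (-0.28), or with any 1 library left out (-0.42 to -0.33). Both si-152 libraries lay below both controls for 8 of the 21 (13.9% of all tested genes) and above them for 5 (16.5%).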
